A study of Mus musculus with 18 samples.

Results

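The small heat shock proteins and the BAG cochaperones were followed in mouse fibroblasts exposed to heat or to tunicamycin. The set held 10 genes, chosen by symbol, of the 20207 genes listed in each file: 4 small heat shock protein genes (Hspb1, Hspb6, Hspb8 and Cryab) and 6 BAG genes (Bag1 to Bag6). A row under the gene's own symbol was present for 9 of them, and Bag6 was listed under its older symbol, Bat3, which RefSeq gives as a synonym. All 10 genes were detected with 1 read or more in each of the 18 samples, the condition for a test, and so entered every comparison together with 12731 genes in all.

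The samples were cultures of NIH3T3, a mouse embryonic fibroblast line, that stably expressed DD-GFP, a destabilizing domain fused to a green fluorescent protein. The cells were a sorted pool with high GFP rather than a single clone, and Shield-1, the ligand that keeps the domain folded, was kept in the medium of all 18 cultures, the controls included. The groups were an unstressed reference taken at 0 min, heat shock at a raised temperature (HS) for 45 and 135 min, and tunicamycin (Tu), an inhibitor of N-linked glycosylation that causes unfolded protein in the endoplasmic reticulum, for 45, 135 and 405 min, with 3 samples in each. HS at 405 min was not analysed here, and nothing in the labels says that samples of a group were grown apart, so p-values measure the spread between these samples, which may be technical. No untreated culture was sampled at 45, 135 or 405 min. In every comparison with the reference, treatment therefore cannot be told apart from time in culture or handling.

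Small heat shock proteins are chaperones without ATPase activity that bind unfolding clients and hold them in a state from which the HSP70 machine can refold them. Most BAG proteins dock on HSP70 through a shared domain and help it release ADP and client, and members carry other domains that send the client to different fates. Transcription of several of these genes is under the control of HSF1, the factor that drives the heat shock response.

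The libraries held 33415592 to 66478268 gene reads each, so that 3 reads, taken as the floor, corresponded to 0.0451 to 0.0898 CPM (the read count of a gene scaled to the size of its library), a limit that covers counting error only. Samples of one group differed along a shared axis, the first principal component of their deviations from the group means, which held 68.1% of the within-group spread. HS 45 min replicate 3 (77.6) and HS 135 min replicate 1 (55.4) lay at one end of this axis, and HS 135 min replicate 2 (−69.6), Tu 135 min replicate 1 (−50.1) and HS 45 min replicate 2 (−48.2) at the other. All 9 fibroblast markers were above 1 CPM in every group, with a summed level of 21080 to 78170 CPM, while the 7 muscle markers, from tissues rich in small heat shock proteins, summed to 4.34 to 12.1 CPM and only Tnnt2 passed 1 CPM. The 4 epithelial markers summed to at most 1.11 CPM and the 3 blood markers to 5.47 to 8.75 CPM, of which only Cd68 passed 1 CPM. As the cultures were measured in bulk, a change in the share of cells that hold a transcript and a change in the level per cell cannot be told apart.

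The start sites of the genes that were higher at 135 min of HS are shown first, because heat shock elements are the best known control sequence of this family. A heat shock element is built from GAA units in alternating orientation. RefSeq gives a window from 250 bases before to 50 bases after the start for 8 of the 10 genes, in 10 windows of 300 bases, on GRCm38.p6 (the processed files use mm9); Cryab and Bag4 had no entry. The windows of the 4 genes called at 135 min of HS are printed 5′ to 3′ on the coding strand, with pairs of alternating units in capitals. The windows lie at chr5:135887669-135887968 on the plus strand for Hspb1, chr5:116422815-116423114 on the minus strand for Hspb8, chr7:128523333-128523632 on the plus strand for Bag3 and chr1:33757701-33758000 on the minus strand for Bag2.
Hspb1: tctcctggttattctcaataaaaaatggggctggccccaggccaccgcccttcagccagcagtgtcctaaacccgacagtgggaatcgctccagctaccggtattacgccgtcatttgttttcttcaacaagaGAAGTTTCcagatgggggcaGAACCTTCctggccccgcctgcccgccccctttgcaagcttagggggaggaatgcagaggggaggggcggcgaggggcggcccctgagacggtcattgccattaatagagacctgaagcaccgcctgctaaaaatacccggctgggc
Hspb8: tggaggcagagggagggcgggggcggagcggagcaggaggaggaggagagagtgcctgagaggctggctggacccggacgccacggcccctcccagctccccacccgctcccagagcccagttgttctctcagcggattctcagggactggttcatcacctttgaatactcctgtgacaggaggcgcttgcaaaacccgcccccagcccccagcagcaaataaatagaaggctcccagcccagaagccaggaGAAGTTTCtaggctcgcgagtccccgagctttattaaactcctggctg
Bag3: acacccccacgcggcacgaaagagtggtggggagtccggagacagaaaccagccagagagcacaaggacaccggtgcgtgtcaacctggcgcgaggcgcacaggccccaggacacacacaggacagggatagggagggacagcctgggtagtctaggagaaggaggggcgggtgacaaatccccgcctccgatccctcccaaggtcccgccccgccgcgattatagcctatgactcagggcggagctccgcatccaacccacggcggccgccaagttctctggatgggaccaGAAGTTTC
Bag2: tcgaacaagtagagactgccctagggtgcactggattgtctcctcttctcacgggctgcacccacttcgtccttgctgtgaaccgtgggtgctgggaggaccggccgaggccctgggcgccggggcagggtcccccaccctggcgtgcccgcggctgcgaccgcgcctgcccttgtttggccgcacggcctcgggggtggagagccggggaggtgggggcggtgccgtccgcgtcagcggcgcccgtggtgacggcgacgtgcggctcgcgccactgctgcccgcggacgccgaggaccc

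Pairs of units, searched as GAANNTTC or TTCNNGAA, were found in 4 of the 10 windows, which belong to 4 of the 8 genes with an entry. They were in 15.1% of all 32851 windows of the same length. Hspb1 held 2 pairs, GAAGTTTC at −117 to −110 and GAACCTTC at −97 to −90 relative to the start. Hspb8 held GAAGTTTC at bases 3 to 10 from the start, Bag3 held the same letters at bases 43 to 50, the end of its window, and the second window of Hspb6 held them at −120 to −113 relative to the start. The longer element of 3 units (GAANNTTCNNGAA or TTCNNGAANNTTC, which contains the pair) was in 0.603% of all windows and in none of these genes. None of them held the elements of the unfolded protein response either: TGATGNAA, bound by ATF4 and its partners (3.97% of windows), TGACGTGG, bound by XBP1 (0.676%), or the endoplasmic reticulum stress element (0.119%). A match is a run of letters and not a measured binding site, and the absence of one says only that these letters are not in this window.

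In unstressed cells the 10 genes spanned 3 orders of magnitude in level per length. The deposited RPKM, a read count divided by transcript length and library total, were highest for Cryab at 142 ± 11.7 (SD, n = 3, as for all levels), followed by Bag6 at 83.1 ± 6.97, Bag1 at 66 ± 2.94, Hspb8 at 43.6 ± 7.87 and Bag3 at 30.9 ± 3.75 RPKM. Cryab encodes αB-crystallin, the small heat shock protein best known from lens and muscle, and it was the leading member in these fibroblasts. Bag2 (18.7 ± 0.229 RPKM) and Bag5 (17.6 ± 1.01 RPKM) overlapped in their ranges and did not differ beyond their spread, and Hspb6 (13.2 ± 1.04 RPKM) and Bag4 (4.14 ± 0.513 RPKM) were lower. Hspb1, which encodes HSP25 (HSP27 in human), was the lowest at 0.103 ± 0.0758 RPKM, from 7, 1 and 6 reads in the 3 reference samples.

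**Figure D1:**
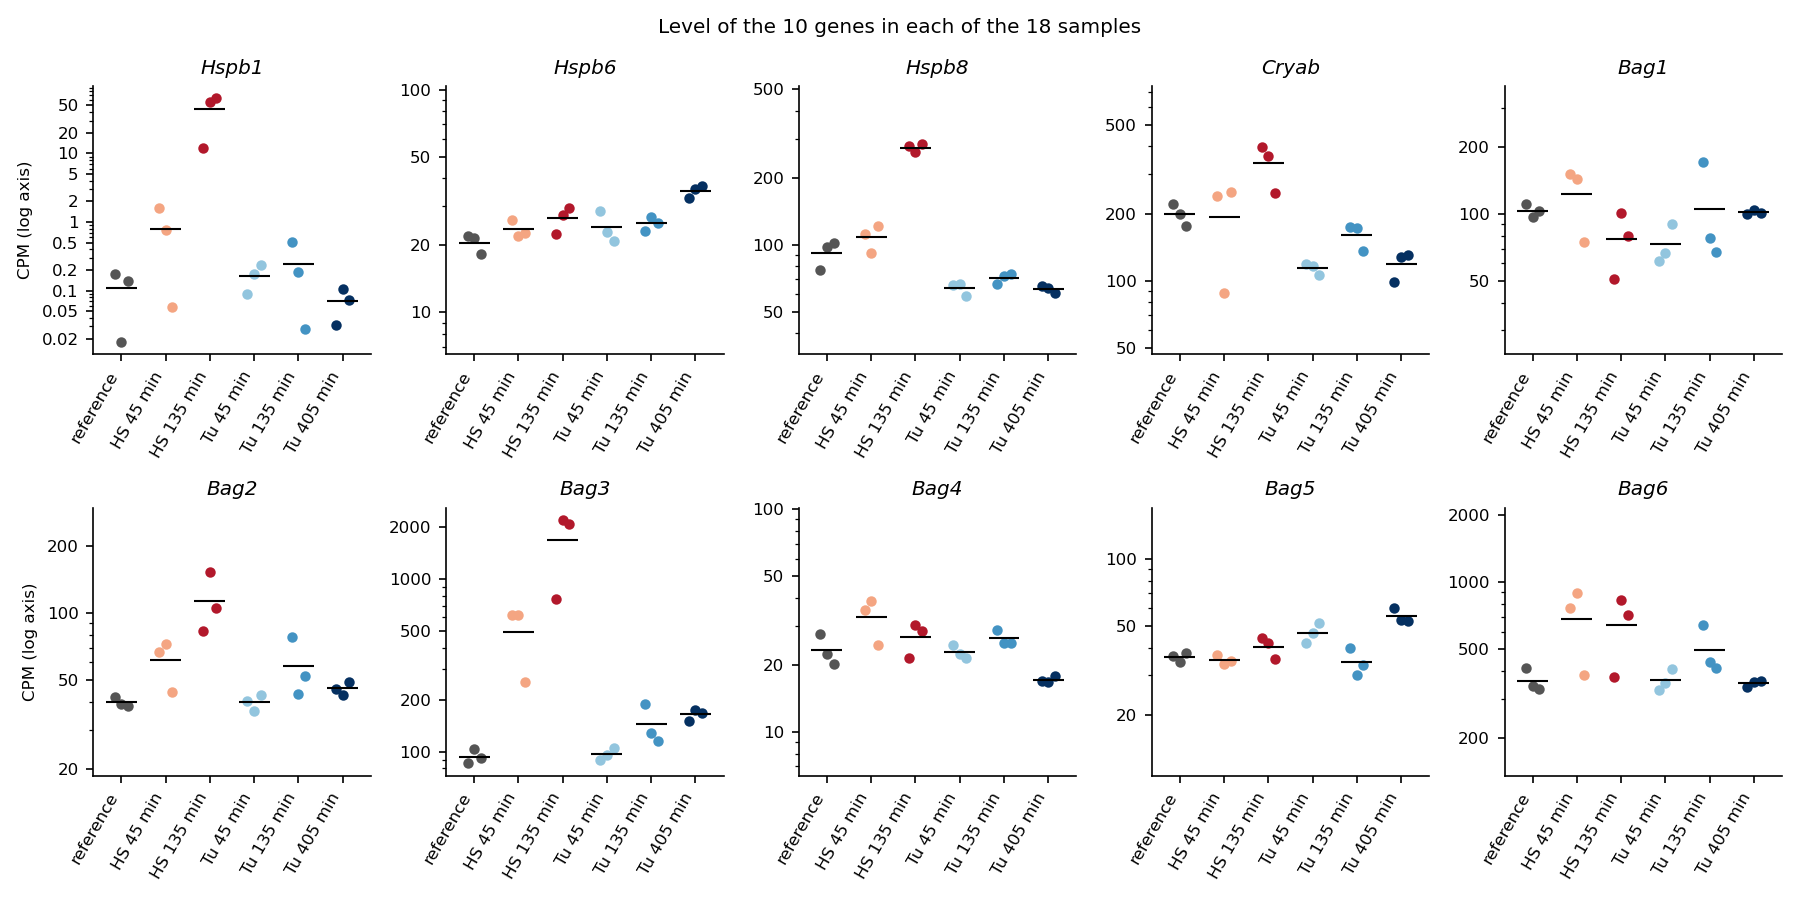
CPM of each gene (vertical log axes, scaled per gene) in the 3 samples of each group (points) with the group mean (bars). Hspb1, Hspb8 and Bag3 stand highest at 135 min of HS, and at 405 min of tunicamycin Hspb6 and Bag5 lie above the reference while Hspb8 and Cryab lie below it.

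Of the 4 small heat shock protein genes, 2 rose at 135 min of HS. A gene is said here to have risen or fallen, or to be called, where edgeR's quasi-likelihood test gave a Benjamini-Hochberg adjusted p below 0.05 over all 12731 genes. Groups said not to overlap are a description of that gene's samples. The share of all genes without overlap was not computed. At 135 min of HS, 4 of the 10 genes were called and all 4 were higher, beside 7.39% of all genes called, 4.75% higher and 2.64% lower. The median log2 fold change of the 10 genes was 0.80, beside −0.02 over all genes.

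Hspb1 was near the floor in unstressed cells and well above it after HS. Its level was 0.176, 0.0179 and 0.137 CPM in the reference, 1.58, 0.762 and 0.0581 CPM at 45 min of HS, and 12.1, 56.7 and 63.7 CPM at 135 min. The 135 min samples lay far above every reference sample, whereas 1 of the 45 min samples lay within the range of the reference. The log2 fold change at 135 min was 8.70 (SE 0.92, adjusted p = 0.008, edgeR quasi-likelihood test). Since the reference held 14 reads in all against 6950, the size of this change is loosely fixed: the ratio of the pooled reads was 419, with a 95% interval of 250 to 767 that covers counting error only.

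Hspb8, the small heat shock protein that pairs with BAG3, rose by a smaller amount and with little spread. It measured 76.7, 97.7 and 102 CPM in the reference and 277, 261 and 283 CPM at 135 min of HS, without overlap, for a log2 fold change of 1.57 (SE 0.20, adjusted p = 0.0124). At 45 min of HS it measured 111, 92.3 and 122 CPM, and these samples overlapped the reference.

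Cryab and Hspb6 were not called under HS. Cryab measured 221, 199 and 175 CPM in the reference and 399, 362 and 247 CPM at 135 min of HS, so that the groups did not overlap, but the log2 fold change of 0.76 (SE 0.24) had an adjusted p of 0.0844. At 45 min of HS its 3 samples were spread over 239, 87.5 and 251 CPM, on both sides of the reference. Hspb6, also called HSP20, measured 18.2 to 22.0 CPM in the reference and 22.5 to 29.5 CPM at 135 min of HS, with a log2 fold change of 0.36 (SE 0.22, adjusted p = 0.295).

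Among the BAG genes, Bag3 and Bag2 rose at 135 min of HS. Bag3 links HSP70 to HSPB8 and to autophagy. It measured 85.5, 103 and 91.9 CPM in the reference, 616, 618 and 252 CPM at 45 min of HS, and 770, 2206 and 2073 CPM at 135 min. No sample of either HS group overlapped the reference, and every 135 min sample was above every 45 min sample. The log2 fold change at 135 min was 4.17 (SE 0.43, adjusted p = 0.00792), an 18-fold higher level. Bag2, which inhibits the ubiquitin ligase CHIP, measured 42.0, 39.0 and 38.3 CPM in the reference and 83.1, 153 and 105 CPM at 135 min of HS, for a log2 fold change of 1.52 (SE 0.26, adjusted p = 0.0206).

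The other 4 BAG genes were not called at 135 min of HS. Bag6, a chaperone of tail-anchored and mislocalized membrane proteins, measured 412, 342 and 331 CPM in the reference, 764, 894 and 384 CPM at 45 min and 377, 836 and 713 CPM at 135 min of HS. In both HS groups 2 samples lay well above the reference and 1 within it, and the log2 fold change was 0.83 (SE 0.31, adjusted p = 0.125) at 135 min. Bag1, which couples HSP70 to the proteasome, measured 96.7 to 110 CPM in the reference and 51.3 to 101 CPM at 135 min, with a log2 fold change of −0.42 (SE 0.26, adjusted p = 0.315). Bag4, known as a silencer of death domains, and Bag5, which carries several BAG domains, had log2 fold changes of 0.20 (SE 0.24) and 0.15 (SE 0.20), with adjusted p of 0.606 and 0.627, and the value of Bag5 was −0.01 when libraries were scaled to their totals.

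**Figure D2:**
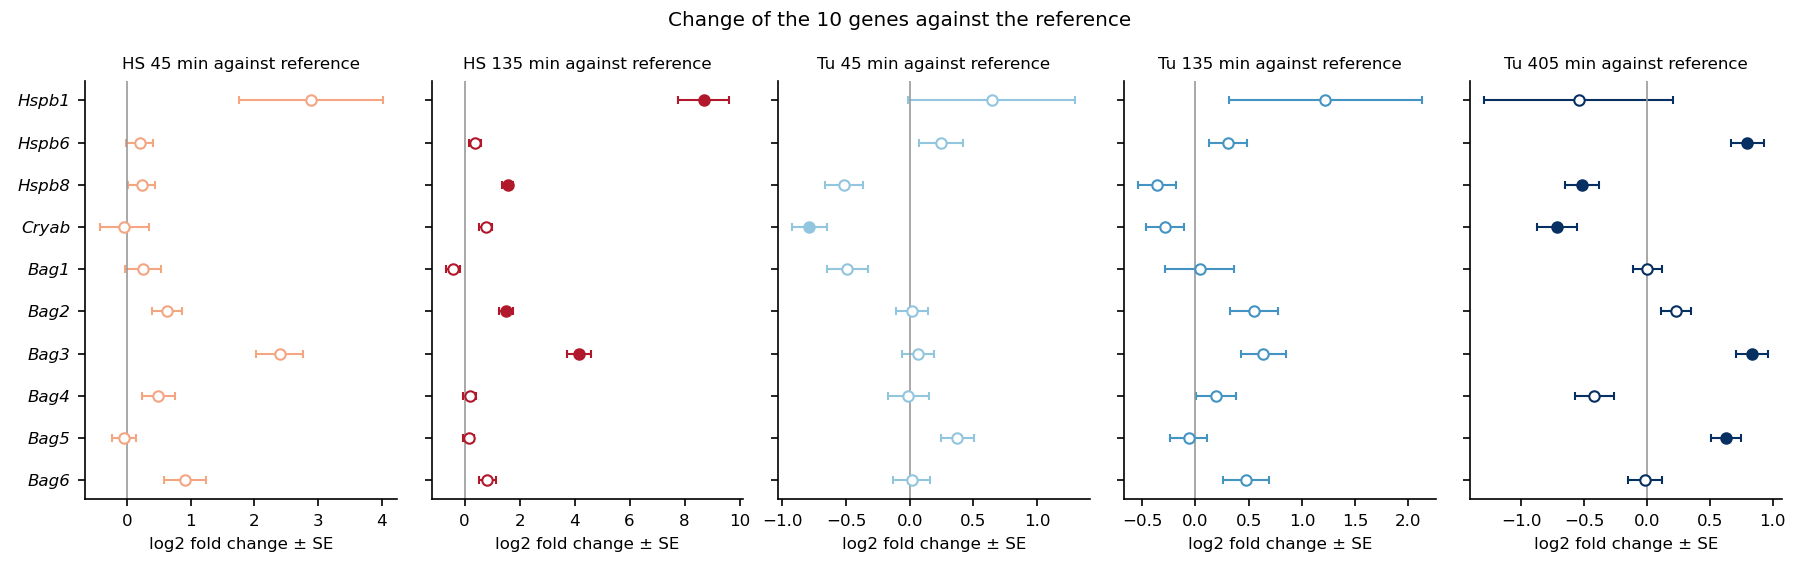
Log2 fold change of each gene against the reference (horizontal axes, scaled per panel) with its standard error (bars), filled where the adjusted p was below 0.05. The 4 filled points at 135 min of HS are all positive, and the 5 at 405 min of tunicamycin lie on both sides of 0.

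The calls at 135 min of HS rested on few samples. Without HS 135 min replicate 3, 0.0864% of all genes were called and none of the 4 genes was (adjusted p = 0.0519 for Hspb1 and for Bag3, 0.0974 for Hspb8 and 0.116 for Bag2, edgeR quasi-likelihood test). Without reference replicate 3 none was called either (0.0864% of all genes), and without reference replicate 2 only Hspb1 was (0.118%), while the log2 fold changes stayed at 8.12 to 9.21 for Hspb1, 3.96 to 4.51 for Bag3, 1.46 to 1.65 for Hspb8 and 1.27 to 1.70 for Bag2 whichever sample was left out. Without HS 135 min replicate 1, at 55.4 on the within-group axis, 19.4% of all genes were called, and so were the 4 genes and Bag6 (log2 fold change 1.10, adjusted p = 0.0182). Without HS 135 min replicate 2, at −69.6 on the other side of the axis, 1236 genes were called in all, among them the 4 genes but not Bag6.

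At 45 min of HS no gene passed the adjusted threshold by edgeR's quasi-likelihood test (0.0% of all genes), and 2480 genes, 4 of the 10 among them, had an unadjusted p below 0.05. These were Bag3 (log2 fold change 2.40, SE 0.37, adjusted p = 0.227), Hspb1 (2.89, SE 1.13), Bag6 (0.91, SE 0.33) and Bag2 (0.63, SE 0.24), all higher than the reference. Bag3 was the only one of the 10 called by edgeR's exact test (2.28% of all genes called), by DESeq2 (3.72%) and in 1 fit of all 6 groups (10.6%). Whether genes were called at 45 min depended on HS 45 min replicate 3, in which Hspb1, Bag1, Bag2, Bag3, Bag4 and Bag6 were the lowest of the 3 samples. Without that sample 45.4% of all genes were called, and these 6 genes were called higher, with log2 fold changes of 3.48 for Hspb1, 2.72 for Bag3, 1.20 for Bag6, 0.82 for Bag2, 0.66 for Bag4 and 0.51 for Bag1.

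The deviations of most BAG genes from their group means moved with the within-group axis. That axis was drawn from all 12731 tested genes and held 68.1% of their within-group spread, so many genes move with it. The correlation was computed for the 10 genes only, so whether their values differ from those of other genes was not tested. Over the 18 samples, and as a description of points that share libraries and depth, Pearson's r with the axis was −0.94 for Bag6, −0.93 for Bag2, −0.91 for Bag1, −0.85 for Bag3, −0.81 for Bag4 and −0.75 for Hspb1. It was 0.68 for Hspb8, 0.29 for Cryab, −0.32 for Bag5 and −0.05 for Hspb6. In HS 45 min replicate 3 and HS 135 min replicate 1, the far samples on one side, these BAG genes other than Bag5 and also Hspb1 were the lowest of their group. In a fit of all 6 groups with 1 surrogate variable for such spread, 47.2% of all genes were called at 135 min of HS and 8 of the 10 were, Bag1 lower (log2 fold change −0.62) and Cryab (0.81), Bag6 (0.64) and Hspb6 (0.37) higher beside the 4 genes above. In the same fit 26.8% of all genes were called at 45 min of HS, and Bag3 (1.96), Bag6 (0.52), Bag2 (0.35) and Hspb8 (0.32) were called higher.

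**Figure D3:**
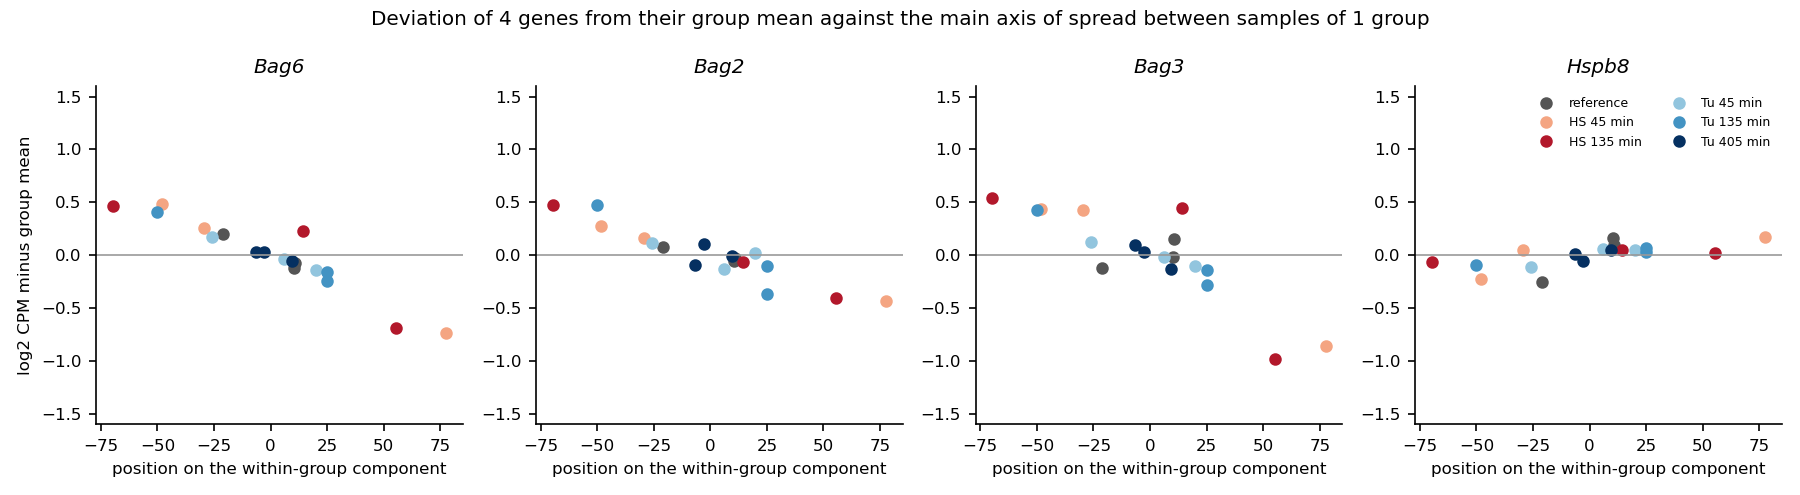
Log2 CPM of 4 genes minus the mean of the group (vertical axis) against the position of the sample on the within-group component (horizontal axis, no unit), colored by group. Bag6, Bag2 and Bag3 fall from left to right, with HS 45 min replicate 3 at 77.6 and HS 135 min replicate 1 at 55.4 lowest, and Hspb8 varies little.

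Between 45 and 135 min of HS, no gene was called (0.0% of all genes; 1481 genes and 4 of the 10 at an unadjusted p below 0.05). Hspb8 differed most tightly (log2 fold change 1.29, SE 0.18, adjusted p = 0.143), and its 2 groups did not overlap. The values were 5.75 (SE 1.22) for Hspb1, 1.71 (SE 0.52) for Bag3 and 0.84 (SE 0.30) for Bag2, again without overlap between the groups. The edgeR exact test called 2 of the 10 in this comparison (1.56% of all genes), Hspb1 and Hspb8, and DESeq2 called 3 (3.23%), these and Bag3.

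Under tunicamycin the called changes lay in both directions. At 405 min 46.8% of all genes were called, 23.3% higher and 23.5% lower, and 5 of the 10 were called, a share near that background: Bag3, Hspb6 and Bag5 rose, and Cryab and Hspb8 fell. The median log2 fold change of the 10 genes was −0.01, the same as over all genes.

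Hspb6 measured 22.0, 21.5 and 18.2 CPM in the reference and 32.8, 35.8 and 37.1 CPM at 405 min of tunicamycin, and every treated sample was above every reference sample. Its log2 fold change was 0.80 (SE 0.13, adjusted p = 0.00194). Bag5 measured 36.9, 34.6 and 37.7 CPM in the reference and 59.95, 53.4 and 52.6 CPM at 405 min, for a log2 fold change of 0.63 (SE 0.12, adjusted p = 0.00331). Bag3 measured 150, 175 and 167 CPM at 405 min, all above the reference, with a log2 fold change of 0.83 (SE 0.13, adjusted p = 0.00119). The call of Bag3 was lost in 1 fit of all 6 groups (adjusted p = 0.0948).

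Cryab and Hspb8, by contrast, were lower after tunicamycin. Cryab measured 98.1, 128 and 131 CPM at 405 min, below every reference sample, with a log2 fold change of −0.71 (SE 0.16, adjusted p = 0.00698) that was not called in 1 fit of all 6 groups (adjusted p = 0.0695). Hspb8 measured 65.3, 63.8 and 61.0 CPM at 405 min, with a log2 fold change of −0.52 (SE 0.14, adjusted p = 0.0141). Its call was lost without reference replicate 3, Tu 405 min replicate 2 or Tu 405 min replicate 3, at adjusted p of 0.0532, 0.0563 and 0.065. Bag4 measured 16.9, 16.8 and 17.9 CPM against 27.5, 22.4 and 20.1 CPM in the reference, just outside the threshold (log2 fold change −0.42, SE 0.15, adjusted p = 0.0521). Bag2, Bag6, Bag1 and Hspb1 had log2 fold changes of 0.23, −0.02, 0.00 and −0.54 and were not called. Hspb1 held 2, 6 and 4 reads at 405 min, near the floor.

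At 45 min of tunicamycin, Cryab was the only one of the 10 called, beside 6.17% of all genes. It measured 119, 116 and 105 CPM, below every reference sample, with a log2 fold change of −0.79 (SE 0.14, adjusted p = 0.0212). This call held in 1 of 6 fits that left out a sample, the one without reference replicate 1, with adjusted p of 0.0124 there and up to 0.136 in the others. It was also lost in 1 fit of all 6 groups (adjusted p = 0.145), where 4.96% of all genes were called and Hspb8 was (adjusted p = 0.0337). Hspb8 (log2 fold change −0.52, SE 0.15), Bag1 (−0.49, SE 0.16) and Bag5 (0.38, SE 0.13) had groups that did not overlap with the reference but adjusted p of 0.0829, 0.109 and 0.119. By edgeR's quasi-likelihood test 4 of the 10, these and Cryab, and 3260 genes in all had an unadjusted p below 0.05.

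At 135 min of tunicamycin 0.134% of all genes were called by edgeR's quasi-likelihood test and none of the 10 was; 2 of the 10, and 2369 genes in all, had an unadjusted p below 0.05, and the exact test (4.3% of all genes called) and DESeq2 (5.91%) also called none of the 10. The 2 genes were Bag3 (189, 128 and 115 CPM, log2 fold change 0.63, SE 0.21, adjusted p = 0.187) and Bag2 (78.0, 43.3 and 52.1 CPM, log2 fold change 0.55, SE 0.23, adjusted p = 0.249). In both, replicate 1, a sample at the low end of the within-group axis, was the highest. Cryab (173, 172 and 136 CPM) lay between its 45 min level and the reference, with a log2 fold change of −0.29 (SE 0.18, adjusted p = 0.417).

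From 135 to 405 min of tunicamycin, 3 of the 10 were called, beside 43.7% of all genes: Bag5 (log2 fold change 0.66, SE 0.15, adjusted p = 0.00922) and Hspb6 (0.47, SE 0.13, adjusted p = 0.0239) rose and Bag4 (−0.64, SE 0.14, adjusted p = 0.00719) fell. The call of Hspb6 was lost without Tu 135 min replicate 3, Tu 405 min replicate 2 or Tu 405 min replicate 3 (adjusted p = 0.0622, 0.1 and 0.11) and with libraries scaled to their totals (adjusted p = 0.0682). Bag5 measured 42.1, 46.5 and 51.7 CPM at 45 min, 39.8, 30.2 and 33.4 CPM at 135 min and 59.95, 53.4 and 52.6 CPM at 405 min, so its 135 min samples were the lowest of the 3 times, and the difference between 45 and 135 min was not tested. Without Tu 135 min replicate 1, 63.8% of all genes and 7 of the 10 were called, as Bag1 (0.47), Bag3 (0.41), Bag6 (−0.29) and Cryab (−0.40) were added.

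The comparisons with the reference all used the same 3 reference samples, so HS and tunicamycin were also compared directly at matched times. At 135 min, 3 of the 10 were higher under HS, beside 2.12% of all genes called in this comparison: Hspb1 by 7.47 on the log2 scale (SE 1.01, adjusted p = 0.0258), Bag3 by 3.52 (SE 0.45, adjusted p = 0.0233) and Hspb8 by 1.92 (SE 0.16, adjusted p = 0.0127). Hspb8 measured 277, 261 and 283 CPM under HS and 66.4, 72.2 and 74.2 CPM under tunicamycin, and the groups of all 3 genes did not overlap. Hspb1 held 21, 10 and 1 reads in the Tu 135 min samples, so the size of its difference is loosely fixed. Cryab (log2 difference 1.04, SE 0.24, adjusted p = 0.0752) and Bag2 (0.96, SE 0.31, adjusted p = 0.149) also had groups without overlap but were not called. By edgeR's quasi-likelihood test 5 of the 10, and 2543 genes in all, had an unadjusted p below 0.05. For Hspb6 the difference was 0.04 (SE 0.20), for Bag4 −0.01 (SE 0.21), for Bag5 0.21 (SE 0.20), for Bag6 0.34 (SE 0.33) and for Bag1 −0.47 (SE 0.41). Without HS 135 min replicate 1, 2.86% of all genes and the same 3 genes were called, whereas without HS 135 min replicate 3, or any one of the Tu 135 min samples, none of the 3 was (adjusted p = 0.0604 to 0.189).

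At 45 min, none of the 10 was called between HS and tunicamycin, beside 0.204% of all genes; 6 of the 10, and 3061 genes in all, had an unadjusted p below 0.05, and the edgeR exact test (5.92% of all genes called) and DESeq2 (9.06%) each called 2, Bag3 and Hspb8. Bag3 was the closest (log2 difference 2.35, SE 0.36, adjusted p = 0.0681), with no overlap between the groups. Without HS 45 min replicate 3, 55.7% of all genes and 8 of the 10 were called: Bag3 (2.67), Hspb1 (2.86), Bag6 (1.20), Bag1 (1.01), Bag2 (0.81), Bag4 (0.69) and Hspb8 (0.67) higher under HS and Bag5 (−0.40) lower. Hspb1 held only 6, 13 and 11 reads in the Tu 45 min samples.

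The make-up of both gene groups was read from RPKM. The 6 BAG genes summed to 220 ± 5.46 RPKM in the reference, 387 ± 104 at 45 min and 708 ± 238 at 135 min of HS. Bag3 made up 11.9%, 15.9% and 14.3% of this sum in the 3 reference samples, 38.2%, 36.5% and 31.8% at 45 min, and 58.0%, 67.2% and 70.4% at 135 min, so that the 3 groups did not overlap. The share of Bag6 went from 37.7 ± 2.24% in the reference to 18.2 ± 1.48% at 135 min of HS, and that of Bag1 from 29.9 ± 1.05% to 6.24 ± 1.14%. At 405 min of tunicamycin the sum was 240 ± 1.18 RPKM and the share of Bag3 was 21.5 ± 1.21%.

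The 4 small heat shock protein genes summed to 199 ± 7.21 RPKM in the reference, 378 ± 53.9 at 135 min of HS and 132 ± 9.45 at 405 min of tunicamycin. Cryab made up 75.9%, 70.5% and 67.8% of the sum in the reference and 64.8%, 57.3% and 45.5% at 135 min of HS, and stayed the largest of the 4 in each of these samples. The share of Hspb1 was 0.0524 ± 0.0385% in the reference and 9.94 ± 6.63% at 135 min of HS. At 405 min of tunicamycin Hspb6 took 16.4 ± 0.697%, against 6.63 ± 0.287% in the reference. Across all 10 genes, Bag3 (251, 573 and 591 RPKM) was above Cryab (285, 205 and 154 RPKM) in 2 of the 3 HS 135 min samples and below it in replicate 1.

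**Figure D4:**
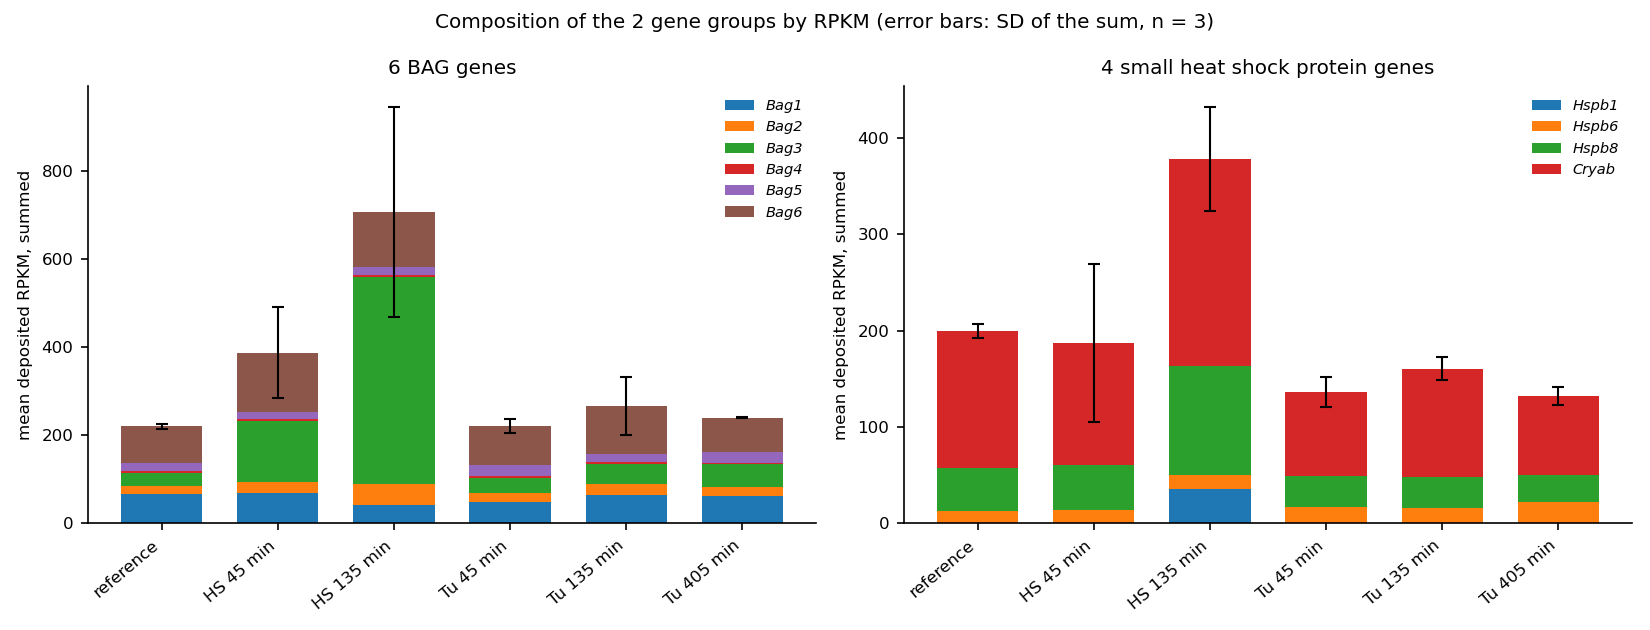
Mean deposited RPKM of each gene (stacked segments) in each group, for the 6 BAG genes and the 4 small heat shock protein genes, with the SD of the sum over 3 samples (bars). At 135 min of HS the Bag3 segment is the largest of the BAG genes, and the sum of the small heat shock protein genes is the highest of the 6 groups.

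Genes with patterns like Bag3, Hspb8 and Cryab were named by the highest Pearson correlation of log2 CPM over the 18 samples, given as a description, since samples share groups and libraries. For Bag3 these were Dnaja4 (r = 0.975), an HSP40 cochaperone, Sec14l1 (0.975), Efnb1 (0.969), Efna2 (0.965) and Fbxl14 (0.963). For Hspb8 they were Hsph1 (0.978), an HSP70 exchange factor, Fam126a (0.967), Dnaja1 (0.965), another HSP40, Ahsa2 (0.952) and Efnb3 (0.949). For Cryab the values were lower, with Tor1aip2 (0.887), Tmem98 (0.882), Atp6v1a (0.85), Uspl1 (0.829) and Ifi30 (0.812).

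The partners of these proteins were read from lists of known function. Of 17 HSP70 genes and other cochaperones that BAG proteins work with, 9 rose and 0 fell at 135 min of HS, where 4.75% of all genes rose and 2.64% fell, and their median log2 fold change was 1.18. The largest changes were those of Hspa1b (7.24, SE 0.65) and Hspa1a (7.20, SE 0.67), near-identical copies of inducible HSP70 whose reads may be split between them, and of Hsph1 (3.33, SE 0.35). At 405 min of tunicamycin, where 46.8% of all genes were called, 2 of the 17 rose, Dnajb2 (0.95, SE 0.14) and Stub1 (0.47, SE 0.16), which encodes CHIP, and 8 fell, led by Dnajb4 (−2.19, SE 0.29), Hspa8 (−1.56, SE 0.14), the constitutive HSP70, and Hspa1l (−1.19, SE 0.25). At 45 min of tunicamycin 4 of the 17 fell and 0 rose.

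Of 19 genes tied to selective autophagy with BAG3 and HSPB8, 4 rose and 0 fell at 135 min of HS, where 4.75% of all genes rose and 2.64% fell. The 4 were Synpo2 (log2 fold change 1.99, SE 0.32), a partner of the BAG3 WW domain, Dynll1 (1.44, SE 0.20), a dynein light chain, Ywhag (1.13, SE 0.24), a 14-3-3 protein, and Hspa8 (0.99, SE 0.23). At 405 min of tunicamycin 7 rose and 8 fell, in a comparison that called 23.3% of all genes higher and 23.5% lower. Sqstm1 (2.07, SE 0.14), the autophagy receptor p62, Map1lc3a (0.88, SE 0.19) and Optn (0.63, SE 0.15) rose most, and Synpo (−2.47, SE 0.20), Hspa8 and Flna (−1.26, SE 0.20), a filamin and client of BAG3, fell most. At 45 min of tunicamycin 3 rose and 1 fell.

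Of 9 genes listed for the BAG6 complex and tail-anchored protein insertion, 1 rose at 135 min of HS, Ubqln1 (log2 fold change 1.21, SE 0.28), where 4.75% of all genes rose. At 405 min of tunicamycin, beside 46.8% of all genes called, 5 rose, led by Caml (0.85, SE 0.16), Ubqln1 (0.80, SE 0.22) and Rnf126 (0.74, SE 0.15), and Wrb fell (−0.95, SE 0.22). Bag6 itself measured 338, 358 and 359 CPM at that time, within the range of the reference. Of 7 genes listed by name as other small heat shock genes, 3 had a read in every sample. At 405 min of tunicamycin Hspb11 rose (1.14, SE 0.15) and Hspb7 fell (−2.01, SE 0.36), while at 135 min of HS Hspb11 had a log2 fold change of 0.82 (SE 0.24, adjusted p = 0.0735, edgeR quasi-likelihood test). Of the 5 genes of heat shock factors and their binding protein, at 405 min of tunicamycin Hsf1 (0.85, SE 0.13), the main factor of the heat shock response, and Hsf4 (0.67, SE 0.18) rose and Hsf5 (−1.68, SE 0.57), with a mean of 0.0389 CPM, fell.

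In mm9 the genes lie at chr5:136363789-136365433 (Hspb1), chr7:31338321-31340458 (Hspb6), chr5:116858504-116872873 (Hspb8), chr9:50560863-50564738 (Cryab), chr4:40883431-40895314 (Bag1), chr1:33802329-33814595 (Bag2), chr7:135667097-135690491 (Bag3), chr8:26875011-26895681 (Bag4), chr12:112948069-112951468 (Bag5) and chr17:35272187-35284181 (Bag6). None overlapped another listed gene, but Lin37 began 2 bases from Hspb6, 2810002N01Rik 12 bases from Bag5, Chmp5 272 bases from Bag1, Lsm1 382 bases from Bag4 and Hspb2 465 bases from Cryab. The counting is not stated to use strand, so reads that run past the end of such a neighbor cannot be told from the gene's own.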

How the data were processed

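Poly(A) RNA from 18 samples was sequenced on Illumina instruments, and the study's methods describe more than one way of library preparation without tying it to samples. Alignment to mm9 and counting against RefSeq were done by the authors on DNAnexus; the aligner and counter are not given in the sources used here. The authors deposited an estimated count per gene, not normalized, of which 17.7% to 23.2% of the low values per library were not whole, and these were rounded for the tests. They also deposited an RPKM value, used here to compare genes. A score (RPKM centred and scaled within a library) and a signal (RPKM over its root mean square), both made by the authors, were not used. The files were merged on gene name because 741 genes carry coordinates that differ between them; those of the 10 genes are the same in all files.

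Each pair of groups (3 against 3) was fitted with edgeR 4.0.16 (quasi-likelihood test, TMM scaling, genes with at least 1 read in all 18 samples; Benjamini-Hochberg adjusted p below 0.05) in R 4.3.3. CPM values use TMM factors over all 18 samples. Alternatives were the exact test, DESeq2 1.42.0, DESeq2 size factors, library totals, no filter, all 6 groups in 1 fit, 1 surrogate variable (sva 3.50.0), a replicate block and each sample left out. Replicates differed by more than sampling noise (chi-square per degree of freedom 16.1 to 892), so none was a copy of another. This does not show that they came from separate cultures. Same-numbered samples deviated together only between Tu 135 min and the reference (r = 0.295, 0.251 and 0.207), where the replicate block left 0 of the 10 genes called, as without it.

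All 10 genes are named; from each list of related genes, up to 3 called genes with the largest change in each direction at HS 135 min and Tu 405 min are named, and for Bag3, Hspb8 and Cryab the 5 genes of highest correlation. The members and lists were chosen with earlier results of these data known.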

Additional observations from a re-analysis of the deposited data

Results flagged for a closer look

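Of the 10 genes, 3 differed between HS and tunicamycin at the same time of 135 min by a direct test of the 2 groups. In this comparison 2.12% of all genes were called (edgeR quasi-likelihood test, adjusted over all genes). The log2 difference, HS minus tunicamycin, was 7.47 for Hspb1, 3.52 for Bag3 and 1.92 for Hspb8, and in each case all 3 HS samples were above all 3 tunicamycin samples. Against the reference at 135 min, Hspb8 was higher under HS (log2 fold change 1.57, adjusted p = 0.0124) and had a value of −0.36 under tunicamycin (adjusted p = 0.313), and these 2 comparisons share the reference samples. No cause of these differences was tested.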

How the results depend on the processing

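The number of the 10 genes called depended on the fit. With 1 surrogate variable in a fit of all 6 groups it was 4 at HS 45 min, 8 at HS 135 min, 3 at Tu 45 min and 2 at Tu 135 min against the reference, 5 for HS 135 against HS 45 min, 3 for HS 45 against Tu 45 min and 5 for HS 135 against Tu 135 min. Without the surrogate, all 6 groups in 1 fit gave 1 at HS 45 min, 3 at Tu 405 min, 4 for HS 135 against HS 45 min, 2 for HS 45 against Tu 45 min and 5 for HS 135 against Tu 135 min. The edgeR exact test gave 1 at HS 45 min, 2 at Tu 45 min, 2 for HS 135 against HS 45 min, 5 for Tu 405 against Tu 135 min and 2 for HS 45 against Tu 45 min, and DESeq2 gave 1, 2, 3, 5 and 2 for the same comparisons. Library totals without TMM gave 1 for HS 45 against Tu 45 min, where 116 genes were called in all. The calls over all genes in the other fits are given below, and a count of the 10 is to be read beside them.

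With the replicate block, 0 were called at HS 135 min, at Tu 45 min and for HS 135 against Tu 135 min, in none of which the numbers pair the samples; at Tu 405 min the block kept 5 calls and for Tu 405 against Tu 135 min 2 of 3. Left-out samples gave 0 to 6 calls at HS 45 min, 0 to 5 at HS 135 min, 0 to 2 at Tu 45 min, 4 to 7 at Tu 405 min, 0 for HS 135 against HS 45 min, 2 to 7 for Tu 405 against Tu 135 min, 0 to 8 for HS 45 against Tu 45 min and 0 to 3 for HS 135 against Tu 135 min. Among all genes, the same fits called 0 to 5786 at HS 45 min and 11 to 2467 at HS 135 min. Against the reference they called 58 to 2499 at Tu 45 min and 4067 to 7897 at Tu 405 min. The totals were 0 to 2 for HS 135 against HS 45 min and 3547 to 8126 for Tu 405 against Tu 135 min. For HS against tunicamycin they were 0 to 7087 at 45 min and 0 to 364 at 135 min. Bag1 turned direction in 4 fits: −0.14 at HS 45 min with the surrogate variable, and, for Tu 405 against Tu 135 min, 0.13 with the surrogate variable, 0.0633 with the block and −0.31 to 0.47 with a sample left out. Signs were compared only for a gene called in at least 1 fit of the same comparison, and no other such gene changed sign. Genes called in no fit of a comparison were left out, such as Bag5 at HS 135 min, whose sign changed with library totals. The cause of these changes of sign was not tested.

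Over all genes, the calls at HS 135 min were 941 (605 higher, 336 lower), 1985 by the exact test, 2159 by DESeq2, 3243 in 1 fit of all groups, 6005 with the surrogate variable and 0 with the block. At HS 45 min they were 0, 290, 451, 1345, 3407 and 0, at Tu 45 min 786, 1504, 1843, 632, 3658 and 21, and at Tu 135 min 17, 547, 665, 411, 2219 and 0. At Tu 405 min they were 5960, 6241, 6300, 4057, 6726 and 5270, and for Tu 405 against Tu 135 min 5566, 5865, 5944, 4505, 7125 and 3750. HS 135 against HS 45 min gave 0, 199, 403, 905, 2785 and 0, HS 45 against Tu 45 min 26, 754, 1127, 1270, 1592 and 0, and HS 135 against Tu 135 min 270, 933, 1256, 1771, 4775 and 0. Library totals moved the median log2 fold change of all genes to −0.19 at HS 45 and −0.19 at HS 135 min, 0.10 at Tu 45 min, −0.11 at Tu 405 min, −0.33 for HS 45 against Tu 45 min and −0.18 for HS 135 against Tu 135 min, and the split of higher and lower calls to 498 and 426 at HS 135 min, 878 and 180 (from 510 and 276) at Tu 45 min, 21 and 95 (from 8 and 18) for HS 45 against Tu 45 min and 209 and 275 (from 166 and 104) for HS 135 against Tu 135 min.

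On deposited RPKM in place of CPM, ratios of group means to the reference kept their direction for all 10 calls against the reference. Depth limits Hspb1 alone, whose reference samples held 1 to 7 reads and whose tunicamycin samples held 1 to 21 reads. HS 45 min replicate 3 held 4 reads of it.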
